A study of Mus musculus and Homo sapiens with 22 samples.

Results

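The genes described here are the 8 mouse genes that write, maintain or remove 5-methylcytosine in DNA: the maintenance pair *Dnmt1* and *Uhrf1*, the de novo group *Dnmt3a*, *Dnmt3b* and *Dnmt3l*, and the TET dioxygenase genes *Tet1*, *Tet2* and *Tet3*. They were chosen by name out of the 56196 genes in the count files, not by any measured value, and all 8 were among the 15731 genes with enough reads to be tested. The human orthologs, written in upper case, were looked up in the HEK293T data. RNA-seq read counts came from mouse embryonic stem cells (mESCs), with 3 libraries of a wild-type (WT) line and 3 of a *Mettl3* knockout (KO) line, which lacks the gene function of the catalytic m6A methyltransferase. Both lines were taken from earlier work and grown in serum with LIF, and neither the number of KO clones nor any other treatment is named. N6-methyladenosine (m6A) sites came from miCLIP2, in which an m6A antibody is crosslinked to poly(A)+ RNA, and were predicted by the classifier m6Aboost in WT mESCs, in purchased mouse heart RNA with no age or strain given (1 µg, 300 ng, 100 ng and 50 ng, 1 library each) and in HEK293T cells, an established human embryonic kidney line.

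DNMT1 copies existing methylation onto the new strand at replication and is brought there by UHRF1, which binds hemimethylated CpG. DNMT3A and DNMT3B place methyl groups on unmethylated DNA, with DNMT3L as a cofactor that has no catalytic activity of its own. TET proteins oxidise 5-methylcytosine, which is then lost by dilution at replication or by base excision repair. Serum-grown mESCs are known for high levels of *Tet1*, *Tet2* and *Dnmt3l*, whereas *Tet3* is mainly a gene of oocytes and differentiated cells. m6A is a mark on RNA that METTL3 places mostly at DRACH motifs (D is A, G or T, R is A or G, H is A, C or T, with the modified A in the middle), and it often shortens the life of an mRNA.

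Several facts of the whole series touch every comparison of KO with WT. Gene counts per library ranged from 22746733 to 27254245. The labels do not say whether the 3 libraries of a group came from separate cultures, so p-values measure the spread between these libraries only. Reads of *Mettl3* itself numbered 560, 698 and 612 in the WT libraries, against 462, 669 and 457 in the KO libraries. The gene was thus still read in KO, and its lower level was not called at a threshold of 0.01 (log2 fold change -0.50 with an adjusted p of 0.0134, by the quasi-likelihood test of edgeR). 4 Y-linked genes had at most 2 counts in any WT library and at least 774 in every KO library. Y-linked transcription was thus seen in the KO line and not in the WT line, and genotype and line cannot be told apart. The 5 pluripotency markers were expressed in both lines and none was called changed, although *Esrrb* was called higher under a block for the library number (log2 fold change 0.43, adjusted p = 0.00191, edgeR). Of 7 feeder fibroblast markers, *Thy1* was called higher in KO and *Col1a1* was not called, the other 5 were too low to test, and the summed level of all 7 was 2.93 to 4.58 CPM (read counts scaled to library depth with TMM factors) in WT and 6.76 to 7.90 CPM in KO. Of 6 primitive endoderm markers, *Dab2* was called higher and *Gata4* lower (with *Pdgfra* also higher under the block, adjusted p = 0.00325). The summed level of all 6 was 7.09 to 9.82 CPM in WT and 33.1 to 45.8 CPM in KO. Most of the KO sum was *Dab2*, whose mean was 1.04 CPM in WT and 34.6 CPM in KO. *Pdgfra* had 1.34 and 2.71 CPM and *Gata4* 4.24 and 1.40 CPM, and *Gata6*, *Sox17* and *Sox7* had lower means in KO. Of 4 heart muscle genes, *Ttn* was called higher in KO. The part of these shifts in the results on the 8 genes was not tested.

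Both maintenance genes were lower in KO. *Uhrf1* stood at 502, 412 and 572 CPM in the WT libraries and at 325, 304 and 313 CPM in the KO libraries. Every KO library lay below every WT library, and the WT libraries were the more variable. The mean fell from 495 ± 80.3 to 314 ± 10.8 CPM (SD, n = 3), a log2 fold change of -0.66 with a standard error of 0.13 (adjusted p = 0.00269, edgeR). *Dnmt1* was at 405, 395 and 402 CPM in WT and at 279, 318 and 263 CPM in KO. Again the groups did not overlap, and here the WT libraries agreed within a few percent. The log2 fold change of *Dnmt1* was -0.48 ± 0.11 (SE, adjusted p = 0.00535, edgeR), from a mean of 401 ± 5.45 to 287 ± 28.5 CPM. Both calls depended on single libraries: *Uhrf1* was no longer called when WT library 1 or any 1 KO library was left out (adjusted p from 0.0124 to 0.0145), nor was *Dnmt1* without WT library 1, KO library 1 or KO library 3 (adjusted p from 0.0228 to 0.0386). Scaling by library size alone also ended the call of *Dnmt1* (log2 fold change -0.37, adjusted p = 0.0393).

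None of the 3 de novo genes passed the threshold in the main fit, and differences between them were not tested. *Dnmt3l* was at 109, 134 and 202 CPM in WT and at 77.9, 86.6 and 98.05 CPM in KO. All KO libraries lay below all WT libraries, with WT library 3 far above its group. The log2 fold change was -0.76 ± 0.20 (SE), and the adjusted p of 0.0106 (edgeR) narrowly missed the threshold of 0.01. With the replicate number as a block, which pairs the libraries of the same number, *Dnmt3l* was called lower (log2 fold change -0.72, adjusted p = 3.01e-05). *Dnmt3a* was at 71.7, 64.1 and 80.8 CPM in WT and at 69.6, 64.0 and 68.1 CPM in KO. These ranges overlapped, and the log2 fold change of -0.10 had a 95% interval from -0.35 to 0.15 (adjusted p = 0.480, edgeR). With library size as the only scaling it was 0.01, so no direction can be given. *Dnmt3b* was at 43.0, 33.1 and 77.0 CPM in WT and at 53.9, 41.9 and 61.6 CPM in KO. The WT libraries alone spanned more than the whole KO range. The log2 fold change of *Dnmt3b* was 0.04 ± 0.27 (SE, adjusted p = 0.913, edgeR), with a 95% interval from -0.55 to 0.63, and its sign turned when single libraries were left out, from -0.20 without WT library 2 to 0.46 without WT library 3.

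The TET genes had fitted changes above 0 in KO, and none passed the threshold. *Tet3*, the least expressed of the 8, had 158, 205 and 233 reads in WT against 304, 572 and 413 in KO. Scaled to depth these were 7.46, 7.81 and 11.01 CPM in WT and 12.1, 19.3 and 15.3 CPM in KO. The groups did not overlap, although WT library 3 and KO library 1 came close to each other. The log2 fold change was 0.83 ± 0.22 (SE), and its adjusted p of 0.01004 (edgeR) lay just over the threshold. With the replicate block *Tet3* was called higher (log2 fold change 0.83, adjusted p = 0.000491), whereas without the libraries numbered 2 it was 0.55 (adjusted p = 0.0960). *Tet1* was at 532, 513 and 633 CPM in WT and at 603, 720 and 640 CPM in KO. The ranges overlapped, and the log2 fold change of 0.23 had a 95% interval from -0.06 to 0.51 (adjusted p = 0.169, edgeR). *Tet2* was at 232, 161 and 260 CPM in WT and at 254, 238 and 278 CPM in KO. WT library 2 was low, the other WT libraries lay near the KO values, and the log2 fold change of 0.24 had a 95% interval from -0.12 to 0.60 (adjusted p = 0.255, edgeR). Without WT library 2 the log2 fold change of *Tet2* was 0.05.

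**Figure D1:**
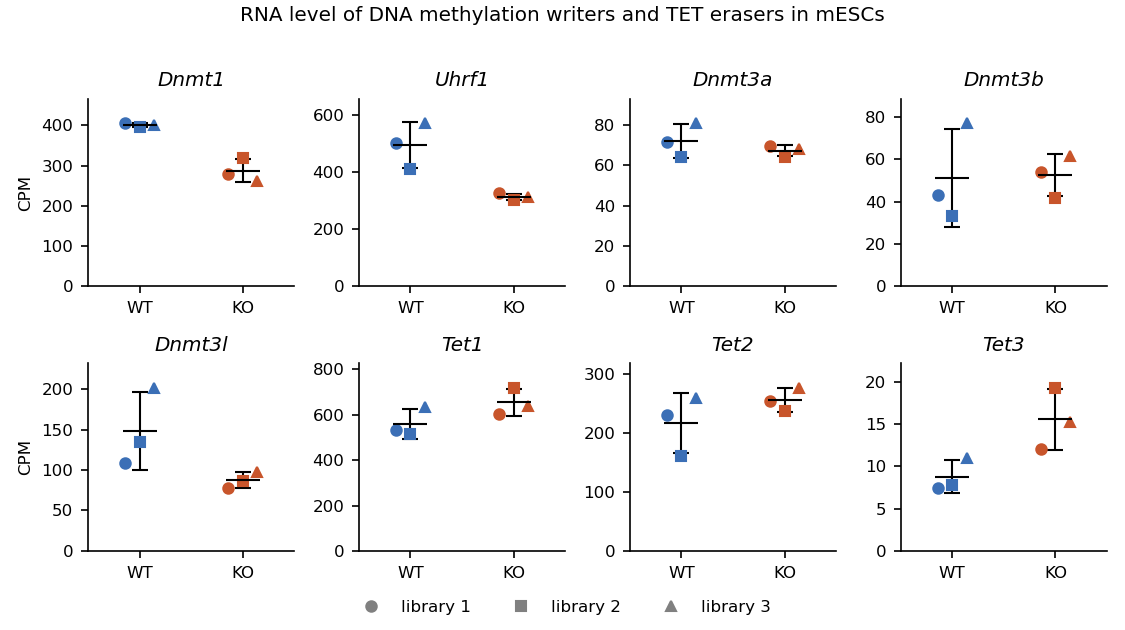
RNA level in CPM (y axis from 0) of each of the 8 genes in the 3 WT (blue) and 3 *Mettl3* KO (red) mESC libraries, with a symbol for each library number and black bars for the mean ± SD. The KO libraries lie below all WT libraries for *Dnmt1*, *Uhrf1* and *Dnmt3l* and above all of them for *Tet3*, and the groups overlap for *Dnmt3a*, *Dnmt3b*, *Tet1* and *Tet2*.

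In all, 2 of the 8 genes were called at an adjusted p of at most 0.01, both lower in KO, while 29.7% of all genes tested were called, 17.1% higher and 12.6% lower (2687 and 1982 genes). Scaled by library size alone, 2937 genes were called higher and 1199 lower, and of the 8 *Uhrf1* was called lower and *Tet3* higher. 4 of the 8 had ranges that did not overlap between the groups, as had 56.1% of all genes tested. With the replicate block 4 of the 8 were called (3 lower and 1 higher) and 43.5% of all genes. The median log2 fold change over the 8 was -0.03, and over all genes tested it was -0.02. The count of 2 fell to 0 without KO library 3 and to 1 without WT library 1, KO library 1 or KO library 2. The remaining call was *Dnmt3l* (lower) without WT library 1, *Tet3* (higher) without KO library 1 and *Dnmt1* (lower) without KO library 2.

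Compared per length of annotated exon, the 8 genes spanned a wide range of levels in WT. *Uhrf1* led with 116 ± 18.9 CPM per kb (SD, n = 3), followed by *Dnmt1* with 54.3 ± 0.740, *Dnmt3l* with 49.7 ± 16.1 and *Tet1* with 36.2 ± 4.15 CPM per kb. *Tet2* (12.9 ± 3.02 CPM per kb), *Dnmt3b* (10.0 ± 4.50), *Dnmt3a* (4.34 ± 0.505) and *Tet3* (0.525 ± 0.117) made up the lower part of the order. *Dnmt1* and *Dnmt3l*, *Dnmt3l* and *Tet1*, and *Tet2* and *Dnmt3b* overlapped in their WT libraries, so their order was not resolved. In KO *Tet1*, at 42.3 ± 3.85 CPM per kb, stood before *Dnmt1*, at 38.9 ± 3.87 CPM per kb, but these ranges overlapped as well. *Tet3* was last in both groups, at 0.932 ± 0.216 CPM per kb in KO. When the length of the longest coding transcript was used, *Dnmt3l* moved ahead of *Dnmt1* in WT and *Tet1* fell behind both in KO. Read assignment left little doubt for most of the 8: no 84-nt window of *Dnmt1*, *Dnmt3a*, *Dnmt3l*, *Tet2* or *Tet3* transcripts occurred in a transcript of another gene. *Dnmt3b* shared 5.46% of its windows with *Dnmt3c*, its rodent duplicate, which had 0 to 7 counts per library, and *Uhrf1* shared 7.56% with the pseudogene *Gm5648*, which had 2 to 9 counts.

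For each of the 8 genes there were others whose log2 CPM followed it closely over the 6 libraries. The closest by Pearson correlation, among 10853 candidates with a mean of at least 100 counts, were *Tbc1d24* for *Dnmt1*, *Rubcn* for *Uhrf1*, *Gspt1* for *Dnmt3a*, *Bap1* for *Dnmt3b*, *Noc4l* for *Dnmt3l*, *Kdm5b* for *Tet1*, *Pdia4* for *Tet2* and *Son* for *Tet3*, with coefficients from 0.991 to 0.999. With 6 libraries such values are common, and 41 genes for *Tet2* to 450 genes for *Uhrf1* had a coefficient over 0.95.

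Genes that act with the writers were called in both directions. Of 16 partners, 4 were called higher and 2 lower, with a median log2 fold change of 0.30. *Zfp57*, which protects imprinted regions, fell most, from 196 ± 22.6 to 86.6 ± 9.39 CPM (log2 fold change -1.17, adjusted p = 7.7e-05, edgeR). *Usp7*, a deubiquitinase bound to DNMT1 and UHRF1, was the other lower gene (-0.58, adjusted p = 0.00189). *Uhrf2*, the paralog of *Uhrf1*, was higher (0.61, adjusted p = 0.00146), and so were the H3K36 methyltransferase gene *Nsd1* (0.72, adjusted p = 0.00206), the H3K9 methyltransferase gene *Setdb1* (0.61, adjusted p = 0.00108) and *Zfp445*, another imprint guardian (0.50, adjusted p = 0.00644). *Hells* (-0.59), *Cdca7* (-0.39), *Pcna* (-0.40) and *Trim28* (-0.50) were not called. The other partners not called had fitted changes above 0: *Dppa3* (0.65), *Prdm14* (0.41), *Setd2* (0.38), *Trdmt1* (0.37), *Ehmt2* (0.22) and *Ehmt1* (0.10). Under the replicate block *Hells*, *Cdca7*, *Pcna* and *Trim28* were called lower (adjusted p from 0.000155 to 0.00227, edgeR). *Dppa3*, *Prdm14* and *Setd2* were called higher under it. In all, 13 of the 16 partners were called with the block, 7 higher and 6 lower, where 43.5% of all genes tested were called. The ranges of 14 of the 16 did not overlap between the groups, where 56.1% of all genes tested had such ranges.

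Of 15 genes downstream of or bound to the TET proteins, 14 could be tested, and 2 were called higher and 2 lower (median log2 fold change -0.15). *Apex1*, the endonuclease that cuts abasic sites, rose from 122 ± 40.6 to 319 ± 42.7 CPM (log2 fold change 1.39, adjusted p = 0.000483, edgeR). It lies 1367.7 kb from *Mettl3* on chromosome 14, and a part of the altered locus or of the line's background in this change was not tested. *Cxxc5*, a CXXC protein gene, rose as well (1.02, adjusted p = 8.25e-05). *Parp1* (-0.87, adjusted p = 0.000411) and *Xrcc1* (-0.67, adjusted p = 0.000465), both of strand break repair, fell. *Tdg*, the glycosylase that removes oxidised 5-methylcytosine, had a log2 fold change of -0.23 and was not called (adjusted p = 0.107). *Cxxc4*, with 1, 2 and 1 reads in WT against 8, 16 and 13 in KO, was too low to test. With the replicate block 7 of the 14 were called, 3 higher and 4 lower.

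Among 10 genes of methyl-CpG binding proteins and their relatives, *Zbtb33* (Kaiso; log2 fold change 0.81, adjusted p = 0.00293) and *Mbd5* (0.71, adjusted p = 0.00115) were called higher and none lower in edgeR, with a median of 0.37. Under the replicate block 7 were called, 6 of them higher. Of 12 germline genes known to be silenced by promoter methylation in somatic cells, 10 could be tested, *Slc25a31* and *Rhox5* having 0 counts in all 6 libraries. The germ cell helicase gene *Ddx4* was called higher (0.71, adjusted p = 0.00546), while *Hormad1* (-1.57, adjusted p = 0.000405) and *Dazl* (-1.48, adjusted p = 0.00434) were called lower, and the median was 0.39. Under the block 5 were called, 2 higher and 3 lower. *Dazl* had 367, 770 and 260 reads in WT against 132, 295 and 160 in KO, and library 2 was the highest of each group. The counts of all 4 lists are to be read beside the 29.7% of all genes that were called. Those under the block are to be read beside the 43.5% of all genes called with it.

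**Figure D2:**
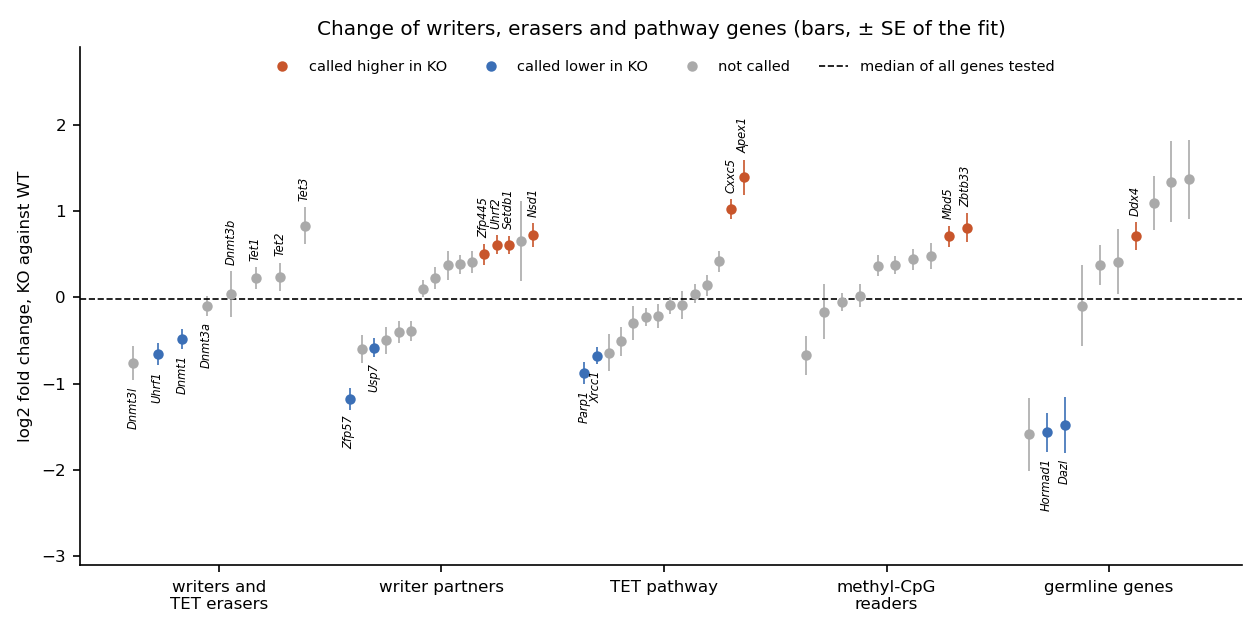
Log2 fold change of KO against WT mESCs (y axis) for the 8 writers and erasers and for the 4 lists of pathway genes that could be tested, each point a gene with its standard error and the dashed line the median of all genes tested, -0.02. Red and blue points are genes called higher or lower at an adjusted p of at most 0.01, and *Apex1* and *Zfp57* stand at 1.39 and -1.17.

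The m6A sites of the 8 genes were then counted in each list, taking sites on the gene's strand in an exon of that gene and no other. The lists hold 1 value per site for all libraries of a sample together and no read depth, so counts of sites have no replicate error, and a site can be missing because the RNA was scarce. The mESC list was made from 3 replicates and held 36 sites in 7 of the 8 genes. *Tet1* had 18 sites, *Tet2* 11, *Uhrf1* 3 and *Dnmt1*, *Dnmt3a*, *Dnmt3b* and *Dnmt3l* 1 each, and *Tet3* had none. The TET genes thus held 29 of the 36 sites. Only 35 of the 6526 genes with sites in the mESC list had more than *Tet1*, and 262 had more than *Tet2*. These ranks were not scaled to RNA level or length. *Tet1* and *Tet2* had mean read counts at or above those of 99.2% and 96.5% of genes tested. Per kb of annotated exon *Tet1* had 1.16 sites, *Uhrf1* 0.704 and *Tet2* 0.652. Of all genes tested in the RNA-seq, 41.5% had at least 1 site in this list. The list of 1 µg heart RNA held 35 sites in 3 of the 8 genes, with 15 in *Tet2*, 14 in *Tet3* and 6 in *Dnmt3a*. *Tet1*, with the most sites in mESCs, had none in heart, and *Tet3* had sites in heart and none in mESCs. Of all genes tested in the mESC RNA-seq, 49.8% had a site in this heart list. HEK293T cells gave 19 sites in 4 of the 8 human genes: 9 in *DNMT1*, 4 in *UHRF1*, 4 in *TET3* and 2 in *TET1*, with none in *DNMT3A*, *DNMT3B*, *DNMT3L* or *TET2*. Of protein-coding human genes, 34.0% had a site there. The RNA levels of these genes in heart and HEK293T cells were not analysed here. In mESCs *Tet3* was low, and of the genes with at most its mean count of 314, 7.98% had a site.

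**Figure D3:**
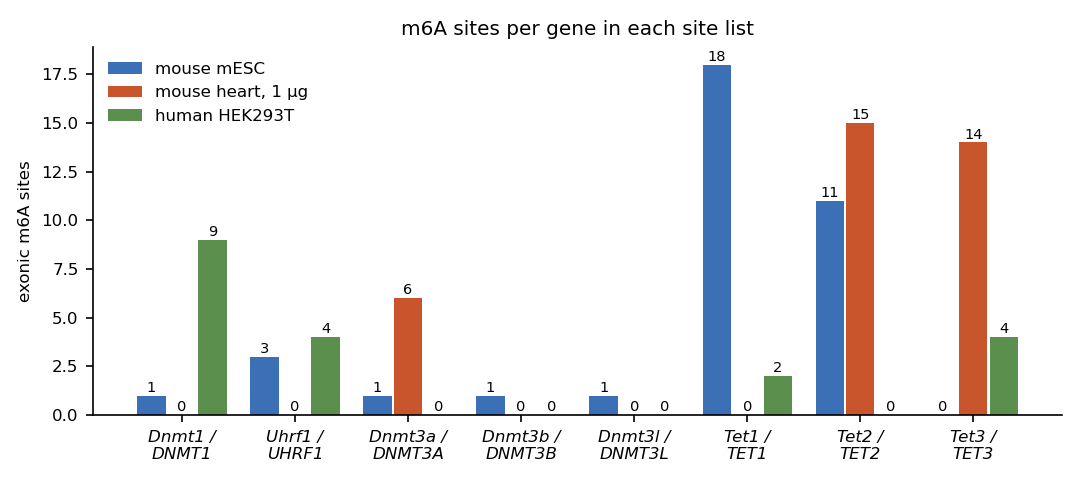
Number of exonic m6A sites (y axis from 0) in each gene in the mESC (blue), 1 µg heart (red) and HEK293T (green) lists, with the mouse and human symbols below. *Tet1* has 18, 0 and 2 sites and *Tet3* 0, 14 and 4, so that the lists differ in which TET gene carries the sites.

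The marker genes followed the labelled tissues. The pluripotency genes *Pou5f1*, *Sox2*, *Nanog* and *Zfp42* had sites in the mESC list and none in heart, whereas *Esrrb* had 15 and 6. The heart genes *Ttn*, *Ryr2*, *Tnnt2* and *Myh6* had 195, 23, 2 and 1 sites in the 1 µg heart list and none in the mESC list.

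All 4 mESC sites of the maintenance genes lay at GGAC. The windows below hold 21 nt with the site in the middle, read 5′ to 3′ on the gene's strand as DNA letters from the reference genomes (GRCm38 for mouse, GRCh38 for human), and capitals mark the 5 nt centred on the site. They show the highest scored site of each gene in the mESC, 1 µg heart and HEK293T lists and the sites that recur between mESCs and heart, between mouse and human or between TET genes. The only mESC site of *Dnmt1* lay in the coding sequence, in exon 32 of 39, at position 20911922 of chromosome 9 (minus strand), with an m6Aboost score of 0.676. The scores of the mESC and HEK293T lists lie between 0.5 and 1. The highest scored site of *Uhrf1* lay in coding exon 3 of 17, at position 56309443 of chromosome 17 (plus strand), with a score of 0.793. The other *Uhrf1* sites were in the last exon, 145 nt before the end of the stop codon and 887 nt after it.
Dnmt1, mESC: ttcacagaGGACTgcaacgtg
Uhrf1, mESC: aaagaacgGGACTcggagctc

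The de novo genes had 1 mESC site each, and those of *Dnmt3a* and *Dnmt3b* lay close to the stop codon. *Dnmt3a* had its site at position 3907669 of chromosome 12 (plus strand), 78 nt before the end of the stop codon in its 6838-nt last exon. It was found in both the mESC list (score 0.824) and the heart list. The highest scored heart site of *Dnmt3a* lay at position 3907751, 4 nt into the 3′ UTR, and the other 4 heart sites were spread over the 3′ UTR, up to 6382 nt after the stop codon. *Dnmt3b* had its only mESC site 12 nt into the 3′ UTR, at position 153686411 of chromosome 2 (plus strand), with a score of 0.819. It was not found in heart. The only site of *Dnmt3l* lay in coding exon 8 of 14, at position 78052755 of chromosome 10 (plus strand), with a score of 0.595, at or above that of 15.8% of the sites in the list.
Dnmt3a, mESC and heart: cgaggcagAGACTgctgggcc
Dnmt3a, heart: tgtgtaagGGACAtgggggca
Dnmt3b, mESC: tctacccaGGACTggggagct
Dnmt3l, mESC: gggccccgGGACCtcagagag

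*Tet1* carried its sites in a few long exons. 10 of the 18 lay in 2 internal coding exons of 1982 and 2203 nt (exons 2 and 4 of 13), 7 in the coding part of the last exon and 1 in the 3′ UTR, 2362 nt after the stop codon. The highest scored, 0.911, lay in exon 2 at position 62878817 of chromosome 10 (minus strand). The 3′ UTR site, at position 62810170, came close with 0.908. 14 of the 18 were at DRACH, and the other 4 had GTAC or GAAT at the core. Of the 311 DRACH motifs in the longest coding transcript of *Tet1*, 4.50% held a site, against 2.33% of all DRACH motifs in the longest coding transcripts of the genes tested. *Tet2* had 4.17% of 192 motifs, *Uhrf1* 4.11% of 73, *Dnmt3l* 2.70% of 37, *Dnmt3b* 1.19% of 84, *Dnmt1* 0.943% of 106 and *Dnmt3a* 0.532% of 188. In the heart list *Tet3* had sites at 12.04% of 108 motifs and *Tet2* at 6.77%. *Dnmt3a*, at 3.19%, was close to the share over the transcripts of genes tested in the mESC RNA-seq, 3.75%. The *Tet3* transcript used ends at its stop codon, so its 108 motifs leave out any in a 3′ UTR. Neither share over the genes tested was matched for RNA level.
Tet1, mESC, exon 2: ccaacaagAAACTgtggctat

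*Tet2* had many sites in both mouse samples. 7 of its 11 mESC sites were found at the same position in heart, and 8 of its 15 heart sites were not in the mESC list. The highest scored mESC site of *Tet2*, 0.915, lay 29 nt into the 3′ UTR at position 133466708 of chromosome 3 (minus strand). Its core, GGACG, is outside DRACH, and the site was in the heart list as well. The highest scored heart site was at position 133467001, 264 nt before the end of the stop codon, and it had a score of only 0.618 in mESCs. The other shared sites of *Tet2* lay in the last exon at positions 133466863, 133467283, 133467641 and 133467651 and in exon 3 of 12 at position 133486129.
Tet2, 133466708: accaccaaGGACGacctgtga
Tet2, 133466863: ggccacagGAACCcagttacc
Tet2, 133467001: ttctaccaAAACAttgtttgg
Tet2, 133467283: ctgcccaaGAACTattataca
Tet2, 133467641: acgtttggGGACAgtccctct
Tet2, 133467651: tcaccaacAGACGtttgggga
Tet2, 133486129: gggcttaaGGACAgaagccag

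With the *Dnmt3a* site, 8 positions were shared between the mESC and heart lists, 22.2% of the 36 mESC sites and 22.9% of the 35 heart sites. Only *Dnmt3a* and *Tet2* had sites in both lists, and in these genes 66.7% of the 12 mESC sites and 38.1% of the 21 heart sites were shared. Over all genes with sites in both lists the shares were 68.8% of mESC and 51.4% of heart sites. The score of the heart lists has another scale, which is not stated, and was used only for ranks.

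All 14 heart sites of *Tet3* were at DRACH. The highest scored lay at position 83366987 of chromosome 6 (minus strand), which is outside the transcript with the longest coding sequence (its annotation ends at the stop codon) but 1055 nt into the 3′ UTR of a transcript with a coding sequence of 5007 nt. Of the 13 others, 9 were in the coding part of the last exon, 3 in the 2158-nt exon 4 and 1 in exon 2.
Tet3, heart, 3′ UTR: gtgcgctgGGACTtttctgac

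**Figure D4:**
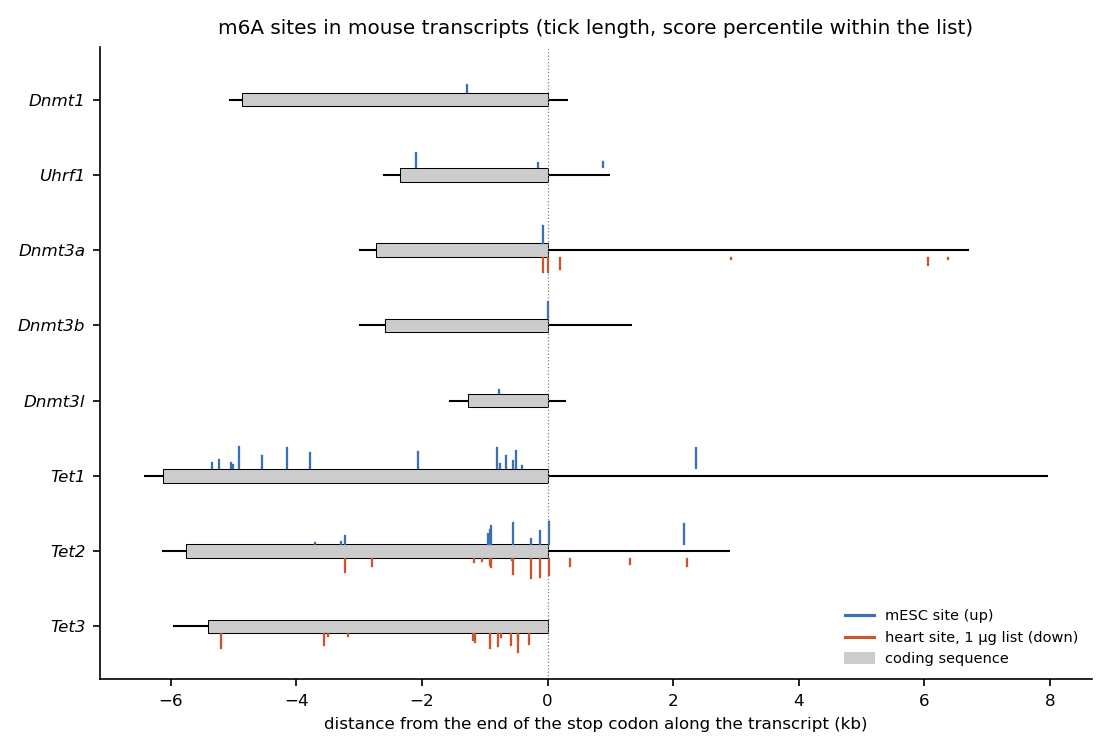
m6A sites along the longest coding transcript of each mouse gene, with the distance from the end of the stop codon in kb on the x axis, grey boxes for the coding sequence and black lines for the UTRs. Blue ticks above are mESC sites and red ticks below are sites of the 1 µg heart list, with tick length the percentile of the score within its list. 17 of the 18 *Tet1* sites in mESCs lie in the coding sequence. So do all 13 *Tet3* sites drawn for heart, but the *Tet3* transcript drawn has no 3′ UTR.

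The sites of the 8 genes lay in coding sequence more than 3′ UTRs: 31 of 36 in mESCs (86.1%), 24 of 34 in heart (70.6%, leaving out the *Tet3* site outside its transcript) and 16 of 19 in HEK293T cells (84.2%). Over all genes placed in the same way, 51.8%, 51.3% and 53.1% of sites were coding. In heart 13 of the coding sites were in the *Tet3* transcript, which has no 3′ UTR, so none of these could be placed in one. None lay in a 5′ UTR. 13 of the 36 mESC sites were in internal exons of at least 400 nt (36.1%, against 23.3% over all genes), and all 13 were in *Tet1* or *Tet2*. In HEK293T cells 10 of the 19 sites were in shorter internal exons (52.6%, against 7.89% over all genes), 8 of them in *DNMT1*, whose longest internal exon has 283 nt. DRACH motifs were at 80.6% of mESC, 94.1% of heart and 100% of HEK293T sites of the 8 genes, against 92.8%, 92.9% and 89.1% over all genes. All 7 mESC sites outside DRACH were in *Tet1* or *Tet2*. The sites of a gene share its transcript, so these shares rest on few genes.

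Between mouse and human, the longest coding transcripts were aligned for each pair of orthologs. All 36 mESC sites fell on an aligned human base, which was an A in 24 and the A of a DRACH motif in 12. The human orthologs of *Dnmt3a*, *Dnmt3b*, *Dnmt3l* and *Tet2* had no HEK293T site, so the mouse sites of these genes could not match one. No share over all genes was computed for this comparison. A HEK293T site was at the same alignment column for 1 of the 36 mESC sites, that of *Dnmt1*. In *DNMT1* this site lay at position 10140235 of chromosome 19 (minus strand), in exon 32 of 39 as in mouse, with a score of 0.920, and 19 of the 21 letters around it were the same. The highest scored *DNMT1* site, 0.929, was in the same exon at position 10140070. The 4 *UHRF1* sites matched none of the 3 mouse sites, and the highest scored of them lay 680 nt into the 3′ UTR, at position 4961483 of chromosome 19 (plus strand), with a score of 0.905. The 2 *TET1* sites, the higher scored at position 68691064 of chromosome 10 (plus strand), were in the last exon and had no mouse counterpart.
Dnmt1, mESC: ttcacagaGGACTgcaacgtg
DNMT1, same column: ttcacagaGGACTgcaacatc
DNMT1, highest score: aagttcaaAAACTctctggtg
UHRF1, highest score: cctcaaggGGACTctgctcca
TET1, highest score: cttcgggaAGACTcagtggtg

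The heart sites gave another match. Of the 34 heart sites in the longest coding transcripts, 32 fell on an aligned human base, 21 on an A and 14 on the A of a DRACH motif. Only the 13 in *Tet3* could match a HEK293T site, since *DNMT3A* and *TET2* had none. A heart site of *Tet3*, at position 83368508, and the highest scored *TET3* site in HEK293T cells, at position 74101710 of chromosome 2 (plus strand, score 0.810), were in the same column, both 466 nt before the end of the stop codon, and their 21-nt windows were identical. When the coding sequences of the 3 mouse TET genes were aligned with each other, this same *Tet3* site shared its column with the *Tet1* site at position 62812932 of the mESC list. 15 of the 21 letters agreed between these paralogs. No other coding site of a TET gene shared its column with a site of another TET gene. Both sites had a second site 11 nt before them. The alignment did not put the second sites in the same column, because it placed a gap in this stretch. Counted back without gaps they fell at the same distance, so whether they correspond was not settled. *Tet1* and *Tet3* were 48.25% identical over their aligned coding bases. The second site of *Tet1* had the core GAATT.
Tet3, heart: ctgtggtcGGACAgtgaacac
TET3, HEK293T: ctgtggtcGGACAgtgaacac
Tet1, mESC: ttctggtcAGACAgtgaggag
Tet3, heart, 11 nt before: acgaggagGAACTgtggtcgg
Tet1, mESC, 11 nt before: aacttgatGAATTctggtcag

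**Figure D5:**
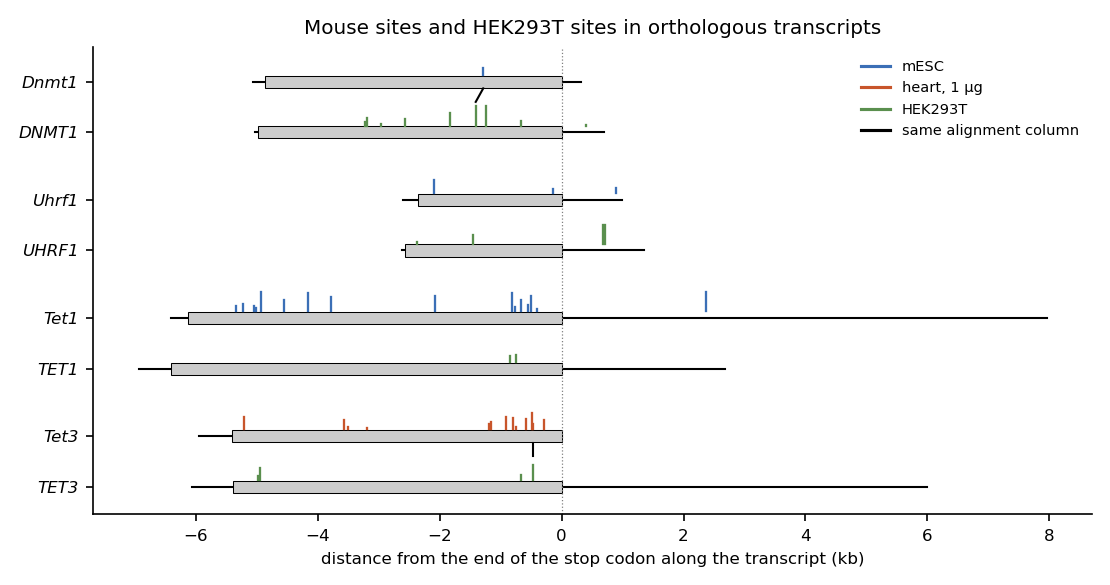
Sites along mouse transcripts (mESC in blue, 1 µg heart in red for *Tet3*) and their human orthologs (HEK293T in green), with the distance from the end of the stop codon in kb on the x axis, grey boxes for the coding sequence and tick length for the percentile of the score within its list. Black lines join the 2 pairs of sites at the same alignment column, in *Dnmt1* and *Tet3*.

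With smaller amounts of heart RNA the sites of these genes were lost. 3 of the 35 sites of the 1 µg list remained at 300 ng (8.57%), and at 100 ng and 50 ng none of the 8 genes had a site. Over the whole lists, 17.8% of the 1 µg sites were found at 300 ng. Sites lay in 8512 genes at 1 µg, but in only 688 genes at 100 ng and 185 genes at 50 ng. The 3 remaining sites were that of *Tet2* at position 133467001 and those of *Tet3* at positions 83368337 and 83368519. Each input has 1 library, so this loss has no replicate check.

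The number of sites and the change in KO can be set side by side. The 8 genes with their sites in the mESC list and their log2 fold changes were *Tet1* with 18 sites and 0.23, *Tet2* with 11 and 0.24, *Uhrf1* with 3 and -0.66, *Dnmt1*, *Dnmt3a*, *Dnmt3b* and *Dnmt3l* with 1 each and -0.48, -0.10, 0.04 and -0.76, and *Tet3* with none and 0.83. Among all genes tested, 467 with at least 10 sites had a median of 0.19, and the medians were 0.09 for 2033 genes with 4 to 9, -0.07 for 4020 genes with 1 to 3 and -0.03 for 9211 genes without a site. The values of *Tet1* and *Tet2* were thus close to the median of genes with as many sites, and *Uhrf1*, *Dnmt1* and *Dnmt3l* were below the median of theirs. *Dnmt3a*, at -0.10, and *Dnmt3b*, at 0.04, stood beside a median of -0.07. *Tet3*, without a site, was the farthest from the median of its class, at 0.83 beside -0.03. Of the genes without a site, 16.9% were called higher and 11.2% lower, while *Tet3* was not called in the main fit.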

How the data were processed

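The gene counts deposited by the authors are whole numbers of reads per gene, not normalised; per the methods, 84-nt single-end reads were mapped to GRCm38 with STAR 2.6.1b and counted with HTSeq 0.12.4 on the reverse strand. Lines that name no gene (36.7 to 42.7% of each file) were left out. The score deposited by the authors with each site is the m6Aboost score in the mESC and HEK293T lists; they mapped those reads with STAR 2.7.3a, removed duplicates with UMI-tools 1.0.0, called peaks per replicate and kept peaks at an A found in at least 2 replicates. Heart titles give the smaller inputs in µg where the methods give ng, which was used.

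Counts were tested in edgeR 4.0.16 (R 4.3.3; filterByExpr, TMM, quasi-likelihood test, no covariates, Benjamini-Hochberg over all genes, called at 0.01). The biological coefficient of variation was 0.159. Libraries numbered 2 and those numbered 3 deviated together from their group means (correlations 0.464 and 0.303). For those numbered 1 the correlation was 0.122, near the 0.110 of WT library 3 with KO library 1. Blocked values are therefore given beside the 8 genes and the markers where they change a call, and mainly as counts for the pathway lists. Sites were placed on GENCODE M21 and 44 (the authors used M23 and 31) with Python 3.11.15, and transcripts were aligned with MAFFT 7.526. Alternatives were DESeq2 1.42.0, other scalings, filters and thresholds, the block, single libraries left out, and, chosen after seeing the data, both libraries numbered 2 left out. Named genes are the 8, the marker lists, up to 4 called genes per direction of each pathway list, those at 0 counts, and the closest gene to each of the 8. The writer partners not called, *Tdg* and *Cxxc4* were named after their values were seen. Named sites are the highest scored per gene and list and those that recur between mESCs and heart or between mouse and human, and the match between *Tet1* and *Tet3* was looked for after seeing the sites. The genes and lists were chosen with earlier results of these data known. miCLIP2 data of KO mESCs were not used here.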

Additional observations from a re-analysis of the deposited data

How the results depend on the processing

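Of the 8 genes, 2 were called, and 4 were called with DESeq2, with no filter beyond 1 count, with the replicate block or at an adjusted p of 0.05. Leaving out 1 library gave 0 to 3. Over all genes the count of 4669 became 7336 at 0.05, 3042 without the libraries numbered 2 of both groups (chosen after seeing the data) and 2761 to 5412 with 1 library left out, the lowest being 2761 without KO library 1, 3108 without WT library 1 and 3109 without KO library 3. The writer partners called rose to 11 with no filter, 13 with the block and 12 at 0.05. The TET pathway genes were 7 under each of these and 4 to 7 with 1 library left out, 7 being the count without WT library 3. The methyl-CpG readers were 5, 7 and 7, and 1 to 3 with 1 library left out, 1 being the count without WT library 1, WT library 2, KO library 1 or KO library 3. The germline genes were 5 with DESeq2, with no filter and with the block, 7 at 0.05, and 1 to 3 with 1 library left out, 1 being the count without KO library 1 or KO library 3.

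With library size as the only scaling, the median over all genes moved from -0.02 to 0.08, *Dnmt1* was -0.37 and no longer called, *Dnmt3a* turned to 0.0081 and *Tet3* was 0.95 and called. With 1 library left out, the log2 fold change ranged from -0.56 to -0.41 for *Dnmt1*, from -0.78 to -0.54 for *Uhrf1*, from -0.95 to -0.47 for *Dnmt3l* (called without WT library 1) and from 0.65 to 1.03 for *Tet3* (called without WT library 3 or KO library 1). *Dnmt3b* ranged from -0.20 to 0.46 and turned negative without WT library 1 (-0.07), WT library 2 (-0.20) or KO library 3 (-0.08), and without the libraries numbered 2 (-0.066). *Dnmt3l* was called with DESeq2 (-0.76), its size factors (-0.77), no filter (-0.72) and the block (-0.72), and *Tet3* with DESeq2 (0.83), no filter (0.87) and the block (0.83). The block changed no other call among the 8. By the length of the longest coding transcript, 6 of 8 places in the order of levels were kept in WT and 5 in KO. Of the m6A sites, those at or above the median score of their list numbered 18 in mESCs, 13 in 1 µg heart, 1 in 300 ng heart and 7 in HEK293T cells, with 4 shared between mESCs and heart and 0 between mouse and human. The cause of these changes was not tested. The site lists give no depth, so a missing site cannot be told from too few reads.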
